A study of Mus musculus with 6 samples.

Results

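The 10 genes described here encode cell junction proteins: the classic cadherins Cdh1, Cdh2 and Cdh3, the claudins Cldn3, Cldn4, Cldn6 and Cldn7, occludin (Ocln), the junctional adhesion molecule F11r, and Epcam. They were chosen by name, as the rows with these symbols, and all 10 were found among the 17710 genes of the series. Bulk RNA was sequenced from 3 libraries of XEN (extraembryonic endoderm) cells and 3 of ES (embryonic stem) cells of the mouse (A, B and C in each group). The XEN cells were of strain ICR and grew in RPMI1640 with FBS, Glut and BME, as the labels spell them, and the ES cells were of strain 129/Ola and grew on gelatin in N2B27-2iLIF. Strain, medium and cell type therefore differ together and cannot be told apart. Nothing in the labels says that A, B and C were separate cultures. P-values therefore measure only the spread between these libraries, which may be technical.

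Cadherins are calcium-dependent adhesion proteins of the adherens junction, which hold cells together and bind catenins inside the cell. Claudins, occludin and junctional adhesion molecules form the tight junction, which seals the space between epithelial cells, and the claudins present set what passes through it. ES cells grow as compact colonies held together by E-cadherin, the product of Cdh1, whereas XEN cells grow loosely attached and resemble the endoderm that lines the yolk sac.

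XEN cells held much less Cdh1, Cdh2 and Cdh3 RNA than ES cells and had another leading claudin; Cdh6, a classic cadherin outside the 10 genes, stood above Cdh1 in XEN cells. Cdh1 fell to 6.74 ± 0.728 FPKM in XEN cells, against 151 ± 4.65 FPKM in ES cells (FPKM, fragments scaled to transcript length and library size; SD, n = 3 here and below). Cldn4 was almost absent from XEN cells and Cldn6 was low in ES cells, so that Cldn6 led the claudins in XEN cells and Cldn4 in ES cells. Ocln and F11r rose, and Epcam did not pass the test. In all, 3 of the 10 genes were higher in XEN cells and 6 were lower at an adjusted p under 0.05, beside 42.0% and 46.7% of the 13581 genes tested. Since 88.7% of all tested genes passed, a pass alone does not set these genes apart. In the main scaling all 9 also passed the test against a change of 2-fold, which 42.7% of tested genes passed, and the same 9 had counts scaled to library size (CPM) that did not overlap between the groups, as did 89.4% of tested genes. The median log2 fold change of the 10 genes was -2.91, and that of all tested genes was -0.07. Each of the 10 passed the filter on low counts. Cdh2, Cdh3, Cldn3 and Cldn4 passed it through the ES libraries alone, so that the filter favoured a difference in these 4.

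**Figure D1:**
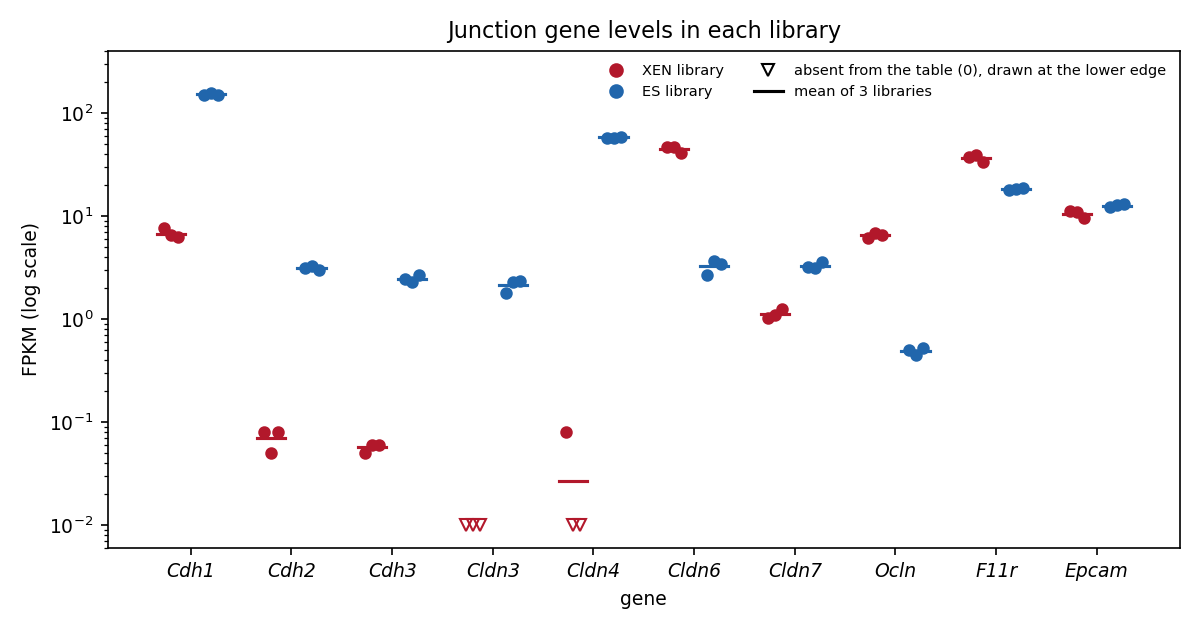
Level of each junction gene in FPKM on a log axis, with 1 point per library, XEN libraries left of ES libraries, and a bar at the mean of 3. Cldn6 and F11r stand highest in XEN libraries and Cdh1 and Cldn4 in ES libraries, while Cldn3 is absent from all 3 XEN tables and Cldn4 from 2 of them.

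Promoter windows are shown for Cldn4, which fell, Cldn6, which rose, and Epcam, which did not pass, since these 3 cover the outcomes among the junction genes. They run from 250 bases before to 50 after the annotated start, 5′ to 3′ on the strand of the gene, and come from RefSeq on GRCm38.p6. That build is not the mm9 named for the files, and no position was compared between them. The windows lie at chr5:134946885-134947184 on the minus strand for Cldn4, at chr17:23679115-23679414 on the plus strand for Cldn6 and at chr17:87635729-87636028 on the plus strand for Epcam. Capitals mark CAGGTG on either strand (CACCTG read in reverse), an E-box form that SNAI and ZEB repressors are known to bind.
Cldn4: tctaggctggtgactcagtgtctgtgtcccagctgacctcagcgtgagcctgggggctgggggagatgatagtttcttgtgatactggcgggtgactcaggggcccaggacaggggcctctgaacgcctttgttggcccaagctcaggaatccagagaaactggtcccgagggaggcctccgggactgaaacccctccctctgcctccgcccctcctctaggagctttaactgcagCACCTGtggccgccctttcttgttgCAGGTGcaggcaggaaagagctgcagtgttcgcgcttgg
Cldn6: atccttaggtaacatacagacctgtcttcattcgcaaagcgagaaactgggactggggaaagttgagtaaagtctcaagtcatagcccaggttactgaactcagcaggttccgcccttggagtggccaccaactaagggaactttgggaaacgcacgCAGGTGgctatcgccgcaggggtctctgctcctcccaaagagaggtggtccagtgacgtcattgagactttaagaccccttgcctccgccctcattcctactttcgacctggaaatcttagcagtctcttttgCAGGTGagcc
Epcam: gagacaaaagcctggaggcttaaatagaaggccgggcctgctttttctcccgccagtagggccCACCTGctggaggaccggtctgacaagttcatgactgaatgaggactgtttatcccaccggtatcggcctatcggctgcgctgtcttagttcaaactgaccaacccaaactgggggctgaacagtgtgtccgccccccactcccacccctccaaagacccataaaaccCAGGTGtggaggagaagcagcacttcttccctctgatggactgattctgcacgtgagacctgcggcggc
Each of the 3 windows holds 2 matches that do not overlap. Of the 10 genes, 7 had windows, 9 windows in all, and Cdh1, Cdh2 and Cdh3 had no entry. CAGGTG was present in 8 of these 9 windows, in genes that rose, fell and did not pass alike, and in 20.2% of all 32851 promoter windows of this length. The 2 windows of Ocln overlap each other, and a match is a description of letters, not of binding. The motif AGATAA, a form known to be bound by factors of the GATA family and searched on both strands, was in 0 of the 9 windows and in 11.2% of all windows.

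Among the cadherins, Cdh1, the main adhesion molecule of ES cells and epithelia, carried nearly all of the RNA of the 3 genes in both cell types. It had 7.56, 6.47 and 6.18 FPKM in the XEN libraries A, B and C, against 148.56, 156.37 and 148.08 FPKM in the ES libraries. Even the highest XEN library lay far below the lowest ES library. On the log2 scale Cdh1 fell by 4.35 ± 0.09 (SE; adjusted p = 2.83e-18), a larger change than in 84.7% of tested genes. It was not silent in XEN cells, where its 734, 628 and 567 counts per library placed its mean FPKM above that of 58.5% of all genes in the tables; in ES cells 97.1% lay below it.

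Cdh2, N-cadherin of neural and mesenchymal cells, was low in both cell types. It had 8, 5 and 8 counts in the XEN libraries, against 306, 341 and 315 counts in the ES libraries. No library of either group came near the other group. The level was 0.07 ± 0.017 FPKM in XEN cells and 3.13 ± 0.136 FPKM in ES cells, a fitted change of 41.9-fold downward (log2 fold change -5.39, adjusted p = 2.03e-17). For Cdh2 the 95% interval of the log2 fold change from limma-voom ran from -5.988 to -4.705. Cdh3, P-cadherin of placenta and basal epithelium, was also low, with 4, 5 and 5 counts in the XEN libraries, against 197, 195 and 231 counts in the ES libraries. Its log2 fold change was -5.33 (adjusted p = 8.9e-16), and the 95% interval from limma-voom ran from -5.97 to -4.49. All 3 cadherins were thus lower in XEN cells.

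Summed over the 3 cadherins, the level was 6.86 ± 0.728 FPKM in XEN cells and 157 ± 4.61 FPKM in ES cells. The sum in XEN cells was 0.0438 times that in ES cells. Cdh1 made up 98.1% ± 0.308 of it in XEN cells and 96.4% ± 0.135 in ES cells. For both quantities the libraries of the groups did not overlap, and the two-sided exact permutation test gave p = 0.1. No smaller p can be reached with the 20 possible arrangements of these libraries.

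The claudins changed in opposite directions. Cldn6, a claudin of embryonic epithelia, had 46.17, 46.68 and 41.03 FPKM in the XEN libraries, against 2.69, 3.61 and 3.42 FPKM in the ES libraries. All XEN libraries were above all ES libraries, and the change was 15.0-fold upward (log2 fold change 3.91 ± 0.14, adjusted p = 4.79e-19). Cldn4, a claudin of many simple epithelia, had 3, 0 and 0 counts in the XEN libraries A, B and C, against 2050, 2144 and 2230 counts in the ES libraries. Its level was 57.6 ± 0.957 FPKM in ES cells, second among the 10 genes there. The ratio of summed counts scaled to depth, ES over XEN, was 1990.0, with an exact (Clopper-Pearson) 95% interval of 681 to 9650.0 that covers counting error only. The adjusted p was 1.27e-22.

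Cldn3, a close relative of Cldn4, was absent from all 3 XEN tables and had 43, 58 and 59 counts in the ES libraries. Set against 3 counts over the XEN group, it was at least 49.6-fold lower in XEN cells (adjusted p = 1.37e-10). Absence from a table, which lists genes from 0.01 FPKM, allows under 0.141 counts for Cldn3 and under 0.204 for Cldn4. These limits hold if FPKM was rounded to the nearest 0.01. In GENCODE M21 the exons of 1 antisense gene, Wbscr25, overlap Cldn3, and whether the counting used strand is not given in the sources used here. Cldn7, a claudin that binds EPCAM, had 25, 29 and 32 counts in the XEN libraries, against 79, 82 and 94 counts in the ES libraries. It fell by 1.46 ± 0.13 on the log2 scale (adjusted p = 1.98e-07), the smallest change among the 6 genes that fell. Its levels of 1.12 ± 0.125 FPKM in XEN cells and 3.26 ± 0.233 FPKM in ES cells were low in both.

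The total of the 4 claudins differed much less than its makeup. It was 45.8 ± 3.03 FPKM in XEN cells and 66.3 ± 1.49 FPKM in ES cells. Cldn6 held 97.5% ± 0.397 of it in XEN cells and 4.88% ± 0.689 in ES cells, a difference of 92.6 percentage points. The groups did not overlap in either quantity, and both reached the smallest exact permutation p = 0.1 (two-sided). With 15 other claudins in the tables added, Cldn6 held 71.5% ± 1.34 of the claudin level in XEN cells and 4.08% ± 0.587 in ES cells. Cldn4 held 0.0415% ± 0.0718 of that level in XEN cells and 72.6% ± 0.652 in ES cells.

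**Figure D2:**
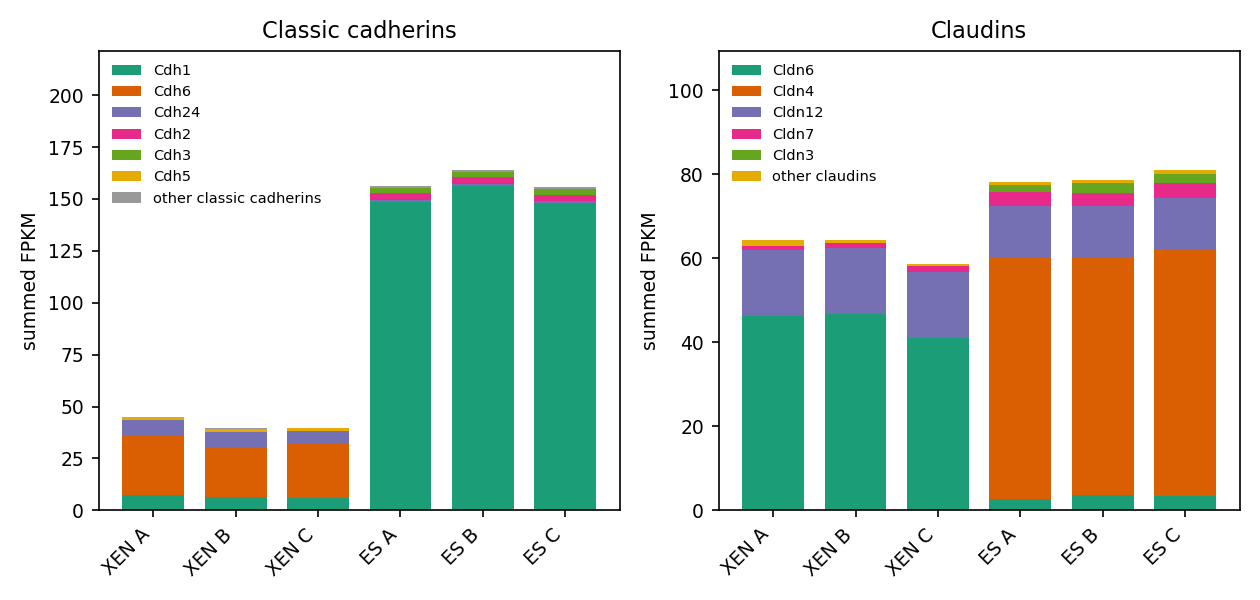
Summed FPKM of the named classic cadherins (left) and claudins (right) in each library, XEN libraries left of ES libraries, with colours for single genes. Cdh6 is the largest part of the XEN cadherin bars and Cdh1 of the ES bars; Cldn6 is the largest part of the XEN claudin bars and Cldn4 of the ES bars. The 11 unnamed models annotated as cadherin-11 are not drawn.

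Ocln and F11r, the other tight junction genes among the 10, rose. Ocln encodes occludin, a membrane-spanning protein of tight junction strands, and had 365, 420 and 364 counts in the XEN libraries, against 29, 28 and 35 counts in the ES libraries. Its level was 6.48 ± 0.38 FPKM in XEN cells and 0.49 ± 0.036 FPKM in ES cells, where it was the lowest of the 10 genes. The change was 13.4-fold upward, without overlap between groups (log2 fold change 3.74 ± 0.10, adjusted p = 4.09e-17). The gene model of Ocln includes 2 transcripts added by the authors. F11r encodes JAM-A, an immunoglobulin-like adhesion protein of the tight junction, and had 37.54, 38.72 and 33.25 FPKM in the XEN libraries, against 17.97, 18.1 and 18.8 FPKM in the ES libraries. It rose 2.18-fold (log2 fold change 1.13 ± 0.07, adjusted p = 5.35e-14) and was the only 1 of the 10 among the 3 highest levels in both cell types.

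Epcam, a homophilic adhesion protein of epithelia and ES cells, was the 1 gene that did not pass. It had 22.65, 22.23 and 19.41 CPM in the XEN libraries, against 22.63, 23.76 and 24.21 CPM in the ES libraries, so that XEN A lay just above ES A. The log2 fold change was -0.13 ± 0.08 (adjusted p = 0.0796), and the 95% interval from limma-voom ran from -0.28 to 0.01. In FPKM, which carries no correction for library composition, the groups did not overlap, with 11.03, 10.91 and 9.48 in the XEN libraries and 12.11, 12.71 and 12.9 in the ES libraries. The call depended on the scaling and on the libraries kept. Epcam passed as lower in XEN cells with upper-quartile factors (adjusted p = 0.000976) and with library size only (adjusted p = 0.00147). It also passed in limma-trend on log2(FPKM + 1) (adjusted p = 0.00376) and on log2(FPKM + 0.1) (adjusted p = 0.00399). Without XEN library A it passed in edgeR (adjusted p = 0.0387).

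**Figure D3:**
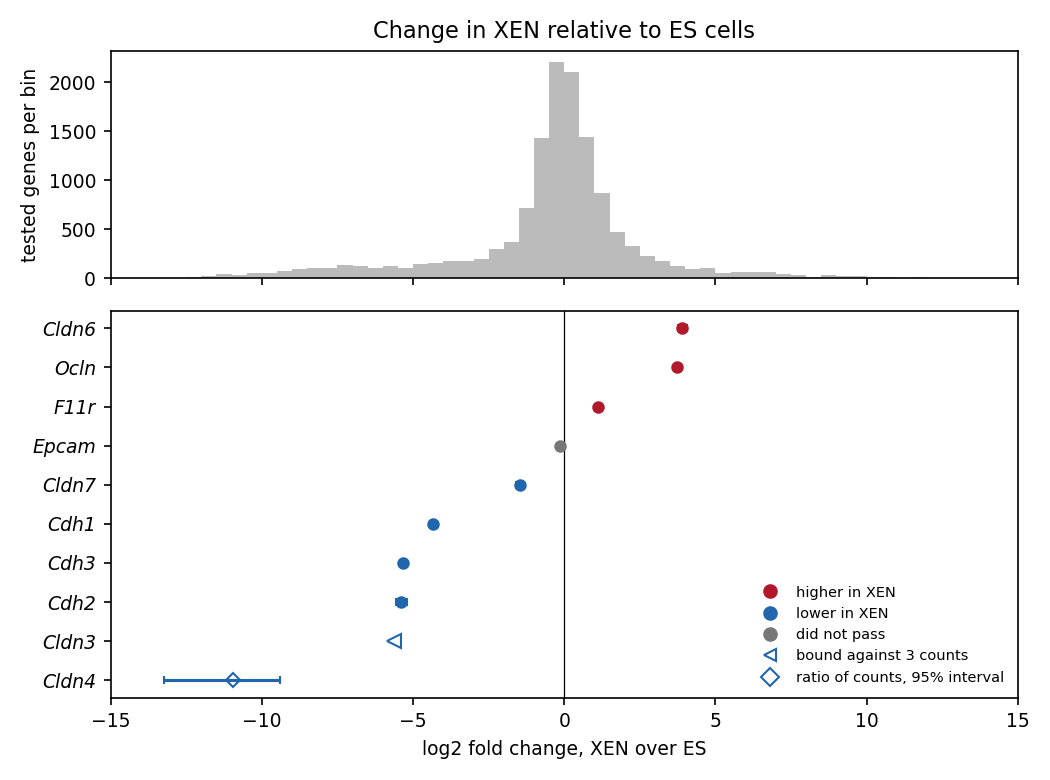
Above, the number of tested genes per bin of log2 fold change (XEN over ES); below, the log2 fold change of each junction gene with its standard error, with Cldn3 drawn at its bound against 3 counts and Cldn4 at the ratio of counts with its 95% interval. Cldn6, Ocln and F11r lie to the right, Epcam near 0 and the other 6 to the left. The standard errors drawn for Cdh2 and Cdh3 are too small, since their XEN counts are few.

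The order of the levels per length differed between the cell types. In XEN cells the FPKM ran from Cldn6 through F11r and Epcam to Cdh1 and Ocln, whose ranges overlapped, and then to Cldn7. Cdh2, Cdh3, Cldn4 and Cldn3 followed, each overlapping the next. In ES cells it ran from Cdh1 through Cldn4 and F11r to Epcam, then Cldn7, Cldn6 and Cdh2, where each range overlapped the next, then Cdh3 and Cldn3, which overlapped, and last Ocln. Mean levels of the 10 genes spanned 0 to 44.6 ± 3.12 FPKM in XEN cells and 0.49 ± 0.036 to 151 ± 4.65 FPKM in ES cells.

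Some of the 10 genes lie side by side in the mouse genome, by the order of protein-coding genes in RefSeq. Cdh3 and Cdh1 are neighbours, as are Cldn4 and Cldn3, and both genes of each pair fell. Next to Ocln lies Marveld2, which encodes tricellulin, a protein of junctions where cell corners meet. Marveld2 rose too, with 6.08 ± 0.289 CPM in XEN cells and 1.36 ± 0.217 CPM in ES cells (log2 fold change 2.15 ± 0.13, adjusted p = 6.02e-11). Cldn9 is next to Cldn6 but did not share its level, with 10 counts over the XEN libraries and 5 over the ES libraries, under the filter. Marveld2 and Cldn9 were taken as neighbours that are also junction genes. Levels of the other neighbours outside the 10 genes, such as Dsc3 next to Cdh2, are not given here.

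Other cadherins were read from lists written from textbook knowledge. The counts called in these and the lists that follow stand beside 88.7% of all tested genes called, 42.0% higher and 46.7% lower, so that a list with most of its genes called is near the background. Among 15 other classic cadherins, 7 were tested, of which 3 rose, 3 fell and 1 did not pass; the median log2 fold change was -0.49. Of the 6 called, 5 passed the filter on low counts only through the group where they are high, which favoured a difference. These were Cdh5 and Cdh6 through the XEN libraries, and Cdh4, Cdh9 and Cdh10 through the ES libraries. Cdh11, which was not called (adjusted p = 0.184), also passed the filter through the ES libraries alone. Cdh6, K-cadherin of the kidney and nervous system, had 5241, 4350 and 4385 counts in the XEN libraries, against 4, 6 and 5 counts in the ES libraries. At 26.2 FPKM in XEN cells and 0.0267 FPKM in ES cells (log2 fold change 9.93 ± 0.13, adjusted p = 7.51e-17), Cdh6 was above Cdh1 in each XEN library. Cdh5, the cadherin of blood vessel endothelium, had 348 counts over the XEN libraries and 1 over the ES libraries, a ratio of 374 with an exact 95% interval of 66.8 to 14800.0. The third that rose was Cdh24, and the 3 that fell had under 1 FPKM in either cell type. The names Cdh24, Cdh4, Cdh9, Cdh10 and Cdh11 were chosen after their values were seen. Of 8 other cadherins without the classic tail, 2 were tested and 1 fell, Cdhr1 of photoreceptors, with 2 counts over the XEN libraries and 2521 over the ES libraries, which passed the filter through the ES libraries alone.

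With these genes added, the named classic cadherins summed to 41.4 ± 3.02 FPKM in XEN cells and 159 ± 4.6 FPKM in ES cells (exact permutation p = 0.1, the smallest possible). Cdh1 held 16.25% ± 0.673 of this sum in XEN cells and 95.2% ± 0.2 in ES cells. The tables also held 11 unnamed gene models annotated as cadherin-11, which summed to 96.96 to 109 FPKM in XEN libraries and 141.2 to 144.9 FPKM in ES libraries. Whether their reads come from cadherin genes was not tested; with them counted in, Cdh1 would hold 4.15% to 5.02% in XEN libraries and 49.7% to 50.6% in ES libraries. A search of the annotations by protein name found no unnamed model for the 10 genes, but it would miss names such as E-cadherin.

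Of 14 tested catenins, nectins and linked proteins, 5 rose, 8 fell and 1 did not pass, a called share near the 88.7% of all tested genes, with a median log2 fold change of -0.13. Ctnnb1, beta-catenin, which links cadherins to alpha-catenin and also carries Wnt signals, had 618 ± 8.28 CPM in XEN cells and 654 ± 17.6 CPM in ES cells (log2 fold change -0.08 ± 0.03, adjusted p = 0.0477). This call was lost with no filter, with the replicate letter as a term, and without XEN B, XEN C, ES A or ES B, where the adjusted p ran from 0.0669 to 0.157. The nectins are immunoglobulin-like proteins of the adherens junction. Nectin1 fell to 0.253 ± 0.093 CPM in XEN cells, against 37.8 ± 1.61 CPM in ES cells (adjusted p = 3.63e-21); it passed the filter through the ES libraries alone, and Ctnna2 through the XEN libraries alone. Nectin3 fell by 3.84 on the log2 scale. Pvr, a nectin-like receptor, rose to 227 ± 9.73 CPM in XEN cells, against 27.8 ± 1.65 CPM in ES cells (log2 fold change 3.03 ± 0.06, adjusted p = 2.34e-22). Ctnna2, the neural alpha-catenin, rose to 8.88 ± 0.142 CPM in XEN cells, against 0.485 ± 0.165 CPM in ES cells (log2 fold change 4.17 ± 0.24).

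Of the other tight junction membrane proteins and scaffolds, 20 of 21 were tested, 12 up and 8 down, beside 42.0% and 46.7% of all tested genes, and the median change was 0.75 on the log2 scale. Of those that fell, Marveld3 and Magi2 passed the filter through the ES libraries alone, which favoured a difference. Jam2 (JAM-B), a relative of F11r, went the other way from it, with 44, 24 and 23 counts in the XEN libraries, against 9379, 9943 and 10614 counts in the ES libraries (log2 fold change -8.25 ± 0.28, adjusted p = 6e-16). Jam2 stood at 0.293 FPKM in XEN cells, below F11r, and at 98.05 FPKM in ES cells, above it. Among the scaffolds, Cgnl1, paracingulin, rose by 4.65 ± 0.09 and Patj, a scaffold of the Crumbs polarity complex, by 3.71 ± 0.11 on the log2 scale, while Tjp3 (ZO-3) fell by 3.65. The polarity kinase gene Prkci, the most abundant of this list, fell by 1.24. Of the 20 other claudins, 1 was tested, Cldn12, at 15.8 FPKM in XEN cells and 12.3 FPKM in ES cells. Cldn12 rose by 0.50 ± 0.007 on the log2 scale (adjusted p = 7.01e-10). That standard error is below counting error, since the XEN libraries happened to agree closely (60.25, 60.27 and 60.43 CPM).

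Desmosomes, which anchor keratin filaments at cell contacts, also had genes in both directions, 3 up and 4 down of 7 tested. Of those that fell, Dsc2 and Pkp3 passed the filter through the ES libraries alone, which favoured a difference. The plaque proteins Dsp (desmoplakin) and Pkp2 rose by 2.26 ± 0.09 and 1.62 ± 0.05 on the log2 scale. Dsg2, the desmosomal cadherin of simple epithelia, fell to 49.5 ± 7.41 CPM in XEN cells, against 119 ± 1.77 CPM in ES cells, and Pkp4 fell by 0.81 on the log2 scale. Proteins linked to EPCAM likewise split, 3 up and 3 down of 6 tested. St14 (matriptase), a membrane protease that cleaves EPCAM, fell to 11.9 ± 1.34 CPM in XEN cells, against 152 ± 1.66 CPM in ES cells, and its inhibitor gene Spint1 fell by 3.88 on the log2 scale. Tspan8, a tetraspanin, and Cd44, the hyaluronan receptor, rose by 5.86 ± 0.30 and 5.63 ± 0.35, and the abundant tetraspanin gene Cd9 rose by 0.52 ± 0.05. Tspan8 and Cd44 passed the filter through the XEN libraries alone.

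**Figure D4:**
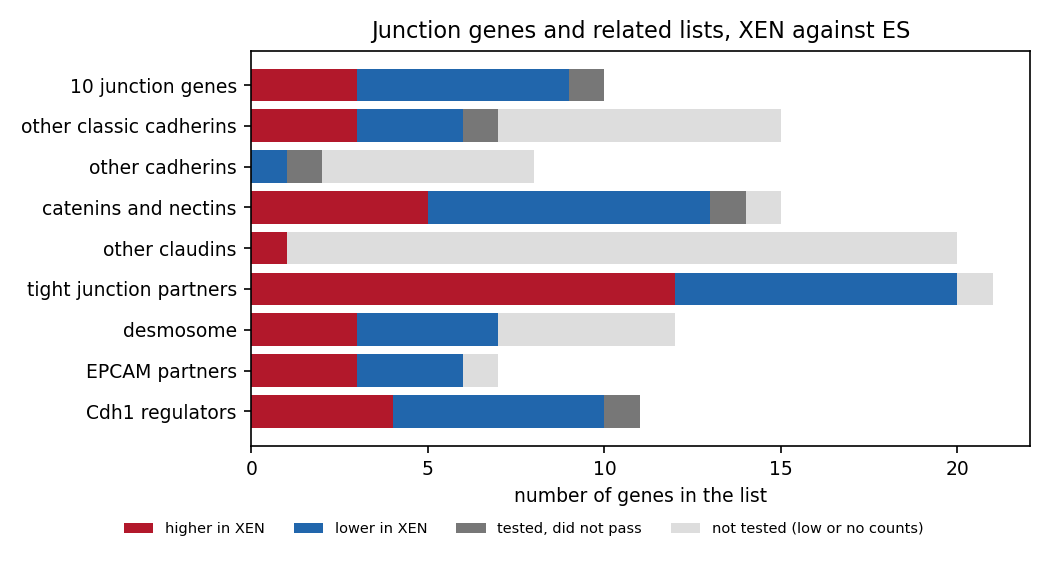
Number of genes in each list that were higher in XEN cells, lower in XEN cells, tested without passing, or not tested. Of the 10 junction genes 3 were higher and 6 lower; the tight junction partners had 12 higher and 8 lower, and 19 of the 20 other claudins were not tested.

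Of 11 transcription factors known to repress or activate Cdh1, 4 rose, 6 fell and 1 did not pass. Of the 10 called, 6 had passed the filter through 1 group alone, Zeb2, Snai2, Twist1 and Grhl3 among them, which favoured a difference. Repressors of Cdh1 went in different directions. Snai1, a repressor of Cdh1, had 2254, 2349 and 2497 counts in the XEN libraries, against 131, 118 and 129 counts in the ES libraries (log2 fold change 4.34 ± 0.10, adjusted p = 5.1e-19). Zeb2, another repressor, rose by 4.15 ± 0.25 on the log2 scale but stayed at 0.917 FPKM in XEN cells. Snai2 and Twist1, also known as repressors, fell (log2 fold change -3.13 ± 0.13, adjusted p = 2.05e-08, and -5.61 ± 0.22, adjusted p = 3.18e-08) and were under 1 FPKM in both cell types. Zeb1 did not pass (adjusted p = 0.4), with 3.49 FPKM in XEN cells and 4.0 FPKM in ES cells. These 3 were named after their values were seen. Grhl3, a grainyhead factor of epithelia, had 0.107 FPKM in XEN cells, from 19 counts, and 18.0 FPKM in ES cells (log2 fold change -7.23). Whether any of these factors acts on the junction genes was not tested.

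The libraries matched their labels by marker genes. All 8 extraembryonic endoderm markers were higher in XEN cells. Of these, Gata6, Sox17 and Sox7 passed the filter through the XEN libraries alone, which favoured a difference. All 7 ES cell markers were lower, and each passed the filter through the ES libraries alone. The ES markers summed to 1.09 to 1.55 FPKM in XEN libraries and 4038 to 4191 FPKM in ES libraries. Fibroblast markers (6 of 7 in the tables) summed to 0.17 to 0.26 FPKM in XEN libraries and 1.72 to 2.01 FPKM in ES libraries. Thy1 held 0.103 FPKM of it in XEN cells and 1.80 FPKM in ES cells, with Col1a1 at 0.03 FPKM in both groups and Lum in no table. Trophoblast markers summed to 4.57 to 5.48 FPKM in XEN libraries and 11.2 to 11.6 FPKM in ES libraries, with Elf5 at 0.0133 FPKM in XEN cells and 0.00667 FPKM in ES cells. Of the 6 tested, Cdx2, Gata3 and Esx1 were higher in XEN cells, against the direction of the sum, and Eomes, Krt7 and Ascl2 were lower. Cdx2 and Gata3 passed the filter through the XEN libraries alone, and Krt7 and Ascl2 through the ES libraries alone. The filter thus favoured a difference in these 4. Of 8 visceral endoderm markers 5 were tested, through the XEN libraries alone, and all rose, while Afp had 20 counts over the XEN libraries and 1 over the ES libraries. Their part in the junction results was not tested. The total was 21134720 to 22375875 expected counts in XEN libraries and 20675311 to 22037793 in ES libraries. In bulk RNA, fewer cells of a kind and less RNA per cell cannot be told apart.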

How the data were processed

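The data were 6 gene tables, 1 per library. The submitters' processing notes name Bowtie2, RSEM, DESeq2 and build mm9 without versions or roles. The deposited tables hold the authors' expected counts, which are estimated counts of reads per gene, and FPKM computed by the authors. Per the labels, libraries were sequenced on BGISEQ-500. The deposited tables list genes from 0.01 FPKM, and an absent gene was taken as 0.

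Expected counts were rounded, filtered by filterByExpr (minimum count 10; 13581 of 17710 genes kept), scaled by TMM and compared, XEN over ES, by the edgeR 4.0.16 quasi-likelihood test in R 4.3.3 with robust dispersion and Benjamini-Hochberg adjustment over all tested genes at 0.05. glmTreat tested a change of 2-fold. CPM errors are SDs. Log2 fold change errors are standard errors of log2 CPM (prior count 2). They are too small where a group has few counts or where its libraries happen to agree closely. Sums of FPKM used exact permutation tests. Steps were tested on simulated counts.

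The junction genes and lists were chosen with earlier results of these data known. Named genes were all 10, and per list up to 2 largest called changes each way (at least 5 CPM in 1 group) and the most abundant member. Alternatives included DESeq2 1.42.0 and limma 3.58.1. Libraries of a group differed beyond sampling noise (chi-square over degrees of freedom at least 2.44). Strand and positions on mm9 were not analysed here.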

Additional observations from a re-analysis of the deposited data

How the results depend on the processing

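All 9 junction genes that passed kept direction and call in all 16 alternatives (other scalings and filters, a replicate letter as a term, DESeq2, limma, and leaving out each library). For Cdh2, Cdh3, Cldn3 and Cldn4, which passed the filter through the ES libraries alone, the filter favoured a lower level in XEN cells in advance. Past 2-fold there were 9 in each edgeR alternative except upper-quartile factors and library size only, with 8 each (2 higher, 6 lower). The log2 fold change of F11r was 0.98 with upper-quartile factors and 0.99 with library size only. The sizes of the low genes depended on the scale: on log2(FPKM + 1) the Cldn3 change was -1.64 and that of Cdh3 was -1.70. Epcam is given in the report. Over all genes, called genes numbered 11096 to 13293. The number of other claudins called was 6 (4 higher, 2 lower) with no filter, and 1 to 2 with a library left out; it was 2 without XEN A, XEN B, XEN C or ES C. With genes of at least 1 CPM, 3 other classic cadherins rose and 1 fell. The median log2 change of all genes was -0.07 with TMM, -0.08 with RLE, -0.21 with upper-quartile factors and -0.20 with library size only. Without a library, the XEN minus ES difference ran from -151.1 to -147.1 FPKM for the 3 cadherins and from -21.5 to -18.8 FPKM for the 4 claudins, and from 92.2 to 92.9 points for the Cldn6 share.

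Letters paired the libraries weakly at most: same-letter deviations correlated by 0.033, 0.0076 and 0.020, and each library correlated best with its own letter. With the replicate block 12000 genes were called, against 12044 without it. Adding unnamed models of the same proteins was not run, since the name search found none. With 3 libraries a group, single counts limit Cldn3 and Cldn4 in XEN cells to bounds and intervals.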

Other observations

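The spread between libraries was wider than counting error for several junction genes. For Cdh1 the coefficient of variation of CPM was 11.1% over the XEN libraries and 3.01% over the ES libraries, where counting alone would give 3.94% and 0.841%. For F11r it was 7.71% over the XEN libraries, against 2.29% from counting, and 2.68% over the ES libraries, against 3.27% from counting. XEN C had the lowest CPM of the XEN libraries for Cdh1, Cldn6, F11r and Epcam. For Cldn7 it had the highest, with 32 counts.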
